A study of Mus musculus with 10 samples.

Results

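The genes described here encode the machinery of motile cilia, the beating cilia that ciliated cells of the respiratory epithelium carry. The list holds 39 genes for the regulators of multiciliated cells, dynein arms, radial spokes, central apparatus, tektins and other axonemal proteins. They were read through every probe set to which the platform annotation gives exactly 1 gene symbol on that list, which took 65 of 21789 probe sets and 39 of 19938 genes. Probe sets of a gene were averaged, and those of Spef2 were also followed one by one.

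The arrays measured RNA of the whole main olfactory epithelium (MOE), the sensory lining of the nose, and compared H2be-GF with wild-type (WT) mice at an age of 5 weeks. H2be-GF mice carry a transgene in which the promoter of olfactory marker protein (Omp) drives H2BE, a variant of histone H2B, with a FLAG tag. That promoter is active in mature olfactory neurons, and the study describes 1 founder line in which some neurons near zone 2 lack the protein. There were 4 H2be-GF and 6 WT arrays, each with RNA pooled from several animals, and with more animals in an H2be-GF pool. WT mice carry no transgene, and neither genotype is labelled with another allele or with a treatment. Sexes were mixed in equal parts over the series and are not labelled for any array.

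Motile cilia are built on doublet microtubules that surround a central pair. Dynein arms on the doublets bend the cilium, while radial spokes and the central apparatus control the beat. Such cilia cover the ciliated cells of the respiratory epithelium in the nose, where they move mucus. The cilia of olfactory neurons have doublets too, but lack dynein arms and serve to detect odours. Multiciliated cells are made under Gmnc and Mcidas, with Foxj1 and the RFX factors switching on the genes of the axoneme.

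RFX factors bind the X-box, which has arms of letters such as GTTGCC, and promoters of ciliary genes are a textbook place for it. The RefSeq promoter windows, from 250 bases before to 50 after each start, were searched for GTTGCC on both strands. Of the 39 genes, 33 had a window, and 15 of those (45.5%) held these letters, against 14.1% of all 27025 genes with a window. Counted by window, 16 of 39 windows of these genes (41%) and 12.5% of all 32851 windows held it. GTTACC, the other X-box arm searched, lay in 25.6% of the windows of these genes and in 7.21% of all windows. The search took no account of base composition, and a match is a description of letters, not a binding site. The 6 stretches that follow belong to genes whose values are given array by array and whose X-box arm lies before the start. Each is 30 bases of GRCm38.p6 on the strand of its gene, 5′ to 3′, with the arm in capitals (GTTGCC, or GGCAAC where it lies on the other strand).
Mcidas, chr13:112993661-112993690, plus strand: gggggaagccagGTTGCCaggttggttaac
Rfx2, chr17:56831107-56831136, minus strand: agcttggtaaccGTTGCCgggcgcaacgcc
Tekt1, chr11:72361883-72361912, minus strand: cgttgcgtccgtccgGTTGCCatagagacc
Hydin, chr8:110266947-110266976, plus strand: cactctgcggttgctgtGGCAACagatggt
Cfap44, chr16:44394768-44394797, plus strand: ggacgttgctatGGCAACcgcagtaaacgg
Drc1, chr5:30281363-30281392, plus strand: caggtgactgctttcccttGGCAACggctt

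The arm began 15 bases before the start in Tekt1, 13 in Hydin, 11 in Drc1 and 19 in Cfap44, and farther away in Rfx2 (116) and Mcidas (195). A full X-box, GTTNCC followed by GGNAAC after 0 to 3 bases, was found in the window of 1 of the genes, Zbbx (2.56% of windows against 0.804% of all). Of these 6 genes, none passed the adjusted threshold of 0.05 in limma.

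The deposited values are log2 signals, and a change is the mean of the H2be-GF arrays minus that of the WT arrays on this scale, so that -0.21 corresponds to 0.864 times the WT signal. Across the 39 genes no change passed an adjusted p of 0.05 in limma with Benjamini-Hochberg adjustment over all 19765 genes tested, where 0.0557% of genes passed (11 in all, 0.0202% higher and 0.0354% lower). The lowest adjusted p among the 39 was 0.36. At an unadjusted p of 0.05, 12 of the 39 genes (30.8%) passed, against 8.78% of all genes. Of these, 9 were lower, against 4.31% of all genes, and 3 were higher, against 4.48% of all genes. A change below 0 was found in 29 of the 39 (74.4%), against 47.7% of all genes, and the median change was -0.08 against 0.01 for all genes. Changes ran from -0.44 (Drc1) to 0.27 (Hydin), with standard errors between 0.06 and 0.14. All 39 genes passed the filter on dim signals, a mean above 5, and the lowest value of any of them on any array was 6.70. A whole tissue holds many cell types, so that a different share of ciliated cells and a different amount of RNA per ciliated cell cannot be told apart.

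**Figure D1:**
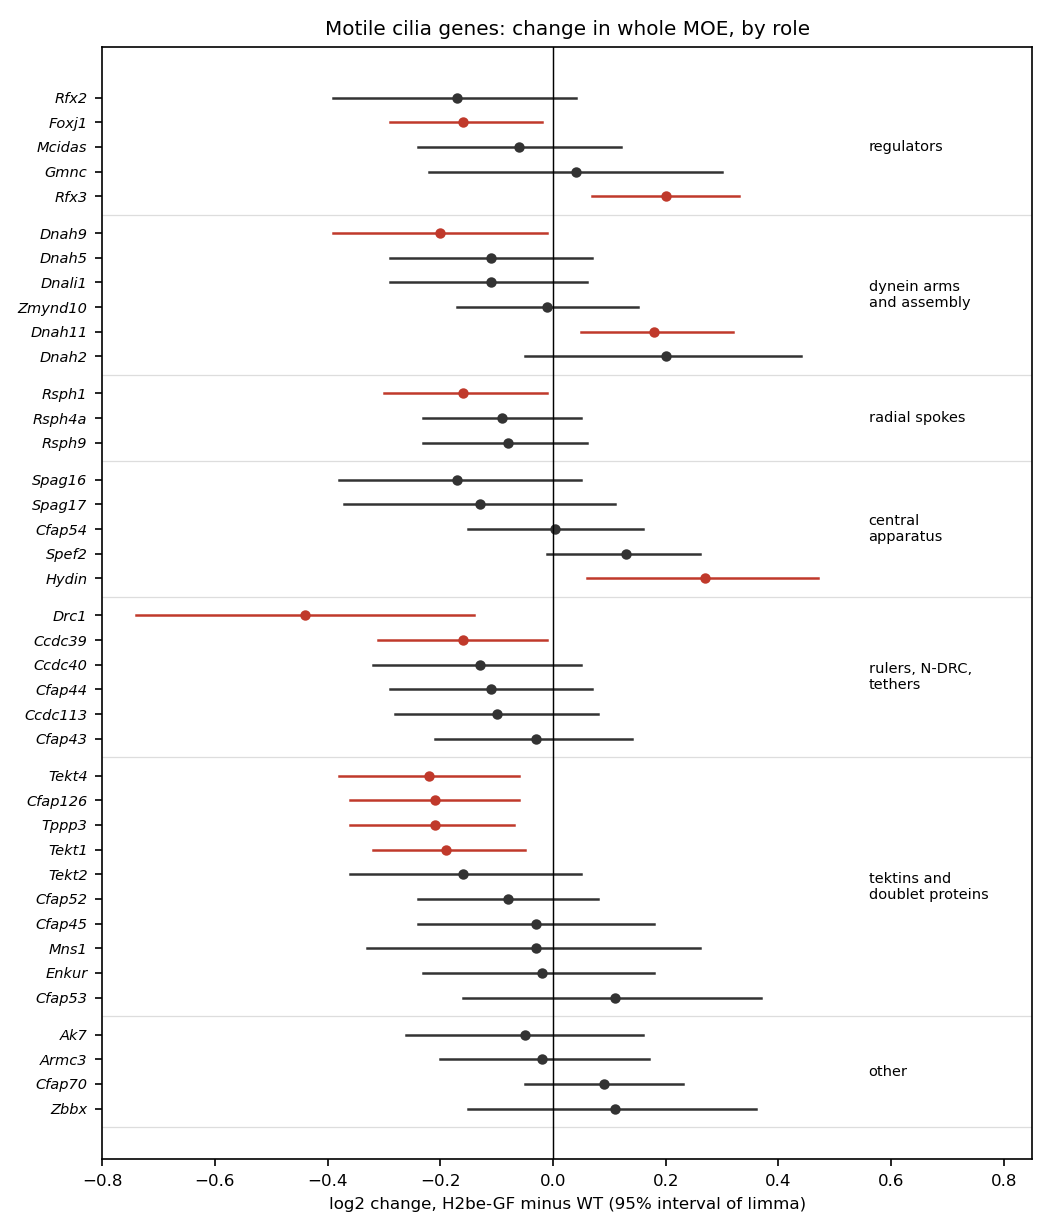
Change of each of the 39 genes (points, log2, H2be-GF minus WT) with its 95% interval from limma (lines), grouped by role, with the 12 genes at an unadjusted p under 0.05 in red. Of the 12, 9 lie below 0 and Rfx3, Dnah11 and Hydin lie above it.

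**Figure D2:**
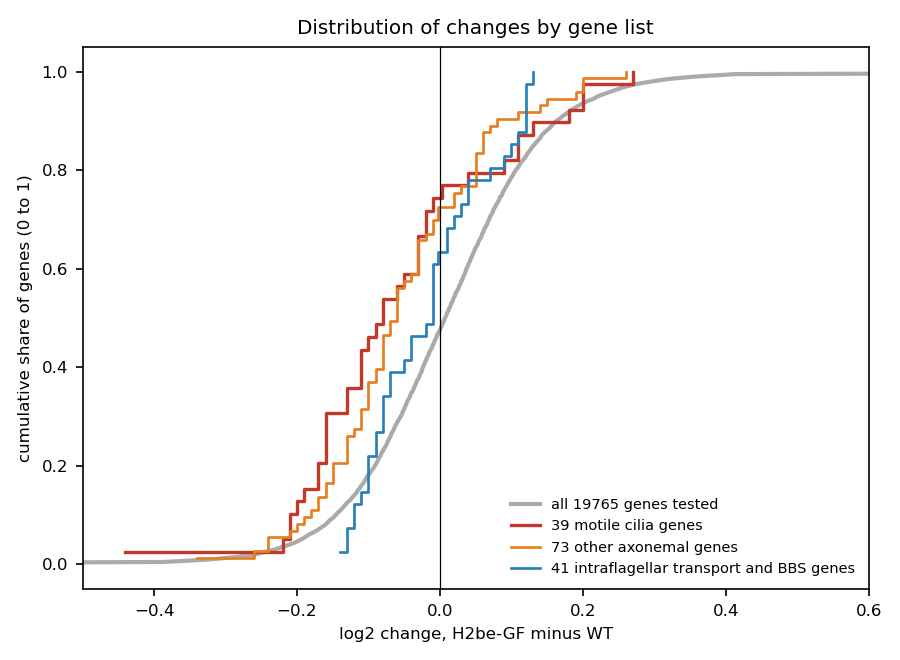
Cumulative share of genes (0 to 1) against the log2 change, for all 19765 genes tested (grey), the 39 motile cilia genes (red), 73 other axonemal genes (orange) and 41 genes of intraflagellar transport and the Bardet-Biedl complex (blue). The median lies at 0.01 for all genes, -0.08 for the 39, -0.06 for the 73 and -0.01 for the 41.

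Among the regulators of multiciliated cells, Rfx3 was higher and Foxj1 lower in H2be-GF mice, both by small amounts. Rfx3, an RFX factor of ciliary genes, read 10.91, 10.81, 10.86 and 10.81 on the H2be-GF arrays, and 10.56, 10.64 and 10.73 at the lowest, median and highest WT array. All 4 H2be-GF arrays lay above every WT array. The change was 0.20 ± 0.06 (SE), with an adjusted p of 0.36 in limma and an exact permutation p of 0.00476, two-sided, the smallest that the 210 splits of these arrays allow. With a trended, robust variance in limma, the adjusted p of Rfx3 was 0.044, and over all alternatives it ran up to 0.999. That variance setting called 129 of all 19765 genes, against 11 in the main fit. Foxj1, the forkhead factor of motile ciliogenesis, read 9.43, 9.56, 9.62 and 9.67 on the H2be-GF arrays, and 9.66, 9.73 and 9.77 at the lowest, median and highest WT array. On 3 of the 4 H2be-GF arrays it was below the lowest WT array. Its change of -0.16 ± 0.06 had an adjusted p of 0.514 in limma and an exact permutation p of 0.00952. Without H2be-GF replicate 1, the change of Foxj1 was -0.11.

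The other 3 regulators did not pass at an unadjusted p of 0.05. Rfx2 read 8.09, 7.75, 7.88 and 7.81 on the H2be-GF arrays, and 7.87, 8.0 and 8.28 at the lowest, median and highest WT array, a change of -0.17 ± 0.10. Mcidas, which starts the multiciliated programme, read 9.47, 9.43, 9.47 and 9.56 on the H2be-GF arrays, inside the WT range of 9.32 to 9.76 (median 9.51). Gmnc, which acts before Mcidas, read 7.24, 6.70, 7.25 and 6.86 on the H2be-GF arrays, and 6.80, 6.97 and 7.19 at the lowest, median and highest WT array. The 95% interval of the change was -0.39 to 0.04 for Rfx2, -0.24 to 0.12 for Mcidas and -0.22 to 0.30 for Gmnc. The change of Gmnc, 0.04, turned to -0.04 without H2be-GF replicate 1 or without H2be-GF replicate 3.

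The 6 genes of dynein arms and their assembly had changes of either sign, with a median of -0.06. Dnah11, a heavy chain of the outer arms, read 9.67, 9.67, 9.70 and 9.62 on the H2be-GF arrays, and 9.35, 9.49 and 9.58 at the lowest, median and highest WT array. All H2be-GF arrays were above every WT array, with a change of 0.18 ± 0.06, an adjusted p of 0.416 in limma and an exact permutation p of 0.00952. Groups that did not overlap were found for 4 of the 39 genes, against 2.98% of all genes. Rfx3 and Dnah11 were higher, against 1.3% of all genes, and Tppp3 and Tekt1 were lower, against 1.68% of all genes. Dnah9, another outer arm heavy chain, had a change of -0.20 ± 0.09 with an unadjusted p of 0.038 and an adjusted p of 0.538 in limma. Its H2be-GF arrays were at 8.76 to 8.99, and its WT arrays at 8.94 to 9.36. Dnah2, an inner arm heavy chain, read 7.55, 7.25, 7.48 and 7.65 on the H2be-GF arrays, and 7.11, 7.21 and 7.67 at the lowest, median and highest WT array. All 4 H2be-GF arrays of Dnah2 lay inside the WT range, with a change of 0.20 ± 0.11. Dnah5 (outer arm heavy chain) and Dnali1 (inner arm light intermediate chain) both differed by -0.11, and Zmynd10, needed to assemble the arms, by -0.01, none of them past an unadjusted p of 0.05.

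All 3 radial spoke genes had changes below 0. Rsph1, of the spoke head, differed by -0.16 ± 0.07 with H2be-GF arrays at 9.52 to 9.72 and WT arrays at 9.67 to 9.86. Its unadjusted p was 0.0349 and its adjusted p 0.527 in limma. Rsph4a, of the same head, had a change of -0.09 ± 0.06, and did not pass at an unadjusted p of 0.05. Rsph9 read 10.33, 10.37, 10.47 and 10.42 on the H2be-GF arrays, and 10.37, 10.48 and 10.62 at the lowest, median and highest WT array, a change of -0.08 ± 0.07.

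The 5 genes of the central apparatus had a median change of 0.003 and the highest single change. Hydin, a large protein of a projection of the central pair, read 7.88, 7.74, 7.79 and 7.60 on the H2be-GF arrays, and 7.26, 7.49 and 7.77 at the lowest, median and highest WT array. On 2 H2be-GF arrays it was above every WT array, and the change was 0.27 ± 0.09, with an adjusted p of 0.429 in limma and an exact permutation p of 0.0333. Spag16 and Spag17, which belong to the central pair, differed by -0.17 ± 0.10 and -0.13 ± 0.11, and both overlapped between genotypes. Without H2be-GF replicate 1, at 6.73, the change of Spag17 was -0.02. Cfap54 had a mean change of 0.003, in which its pair of probe sets went opposite ways, one at -0.16 ± 0.09 and the other at 0.17 ± 0.07, the latter with an unadjusted p of 0.0259 and an adjusted p of 0.491 in limma.

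All 6 genes of the rulers, the nexin-dynein regulatory complex and the tethers had changes below 0, with a median of -0.12. Drc1, a core protein of the nexin-dynein regulatory complex that links neighbouring doublets, had the lowest change of all 39 genes. It read 7.07, 7.48, 7.08 and 7.21 on the H2be-GF arrays, and 7.24, 7.67 and 8.01 at the lowest, median and highest WT array. On 3 of 4 H2be-GF arrays it was below every WT array, and H2be-GF replicate 2 lay among them. The change of -0.44 ± 0.14, or 0.738 times the WT signal, had an adjusted p of 0.385 in limma and an exact permutation p of 0.0333. Ccdc39, which with Ccdc40 forms the ruler that spaces the arms and spokes, differed by -0.16 ± 0.07 with an unadjusted p of 0.037 in limma. Ccdc40 itself, at -0.13 ± 0.08, did not pass at that level, and was at -0.05 without H2be-GF replicate 2. Cfap44, a tether of inner arms and one of the 3 genes of highest mean signal, read 10.23, 9.97, 10.07 and 10.09 on the H2be-GF arrays, and 9.98, 10.21 and 10.35 at the lowest, median and highest WT array. Its change was -0.11 ± 0.08. Ccdc113 differed by -0.10, and Cfap43, a partner of Cfap44, by -0.03 as the mean of 5 probe sets that ran from -0.14 to 0.14.

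Tektins and proteins inside or along the doublets held 4 of the 9 lower genes. Of these 10 genes, 9 had changes below 0, and the median was -0.12. Tppp3, a tubulin-binding protein abundant in ciliated cells, read 9.55, 9.75, 9.69 and 9.74 on the H2be-GF arrays, and 9.79, 9.91 and 9.99 at the lowest, median and highest WT array. Every H2be-GF array was below every WT array, with a change of -0.21 ± 0.07, an adjusted p of 0.385 in limma and an exact permutation p of 0.00476. Tekt1, a tektin of ciliary doublets, read 9.18, 9.22, 9.31 and 9.32 on the H2be-GF arrays, and 9.33, 9.47 and 9.50 at the lowest, median and highest WT array. The groups again did not overlap, with the highest H2be-GF array just under the lowest WT array, and the change was -0.19 ± 0.06, with an adjusted p of 0.399 in limma.

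Tekt4 and Cfap126, a tektin and a doublet-associated protein also known as Flattop, were lower by about as much. Tekt4 read 8.48, 8.52, 8.64 and 8.69 on the H2be-GF arrays, and 8.60, 8.82 and 8.93 at the lowest, median and highest WT array, a change of -0.22 ± 0.08. Cfap126 read 9.41, 9.41, 9.46 and 9.56 on the H2be-GF arrays, and 9.55, 9.66 and 9.77 at the lowest, median and highest WT array, a change of -0.21 ± 0.07. Adjusted p-values in limma were 0.416 and 0.402. H2be-GF replicate 4 was the highest of its genotype for both genes and lay within the WT range. Tekt2 was at -0.16 ± 0.09 and did not pass at an unadjusted p of 0.05, nor did Cfap52 (-0.08), Cfap45 (-0.03), Mns1 (-0.03), Enkur (-0.02) and Cfap53 (0.11), proteins of the doublet lumen or surface.

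**Figure D3:**
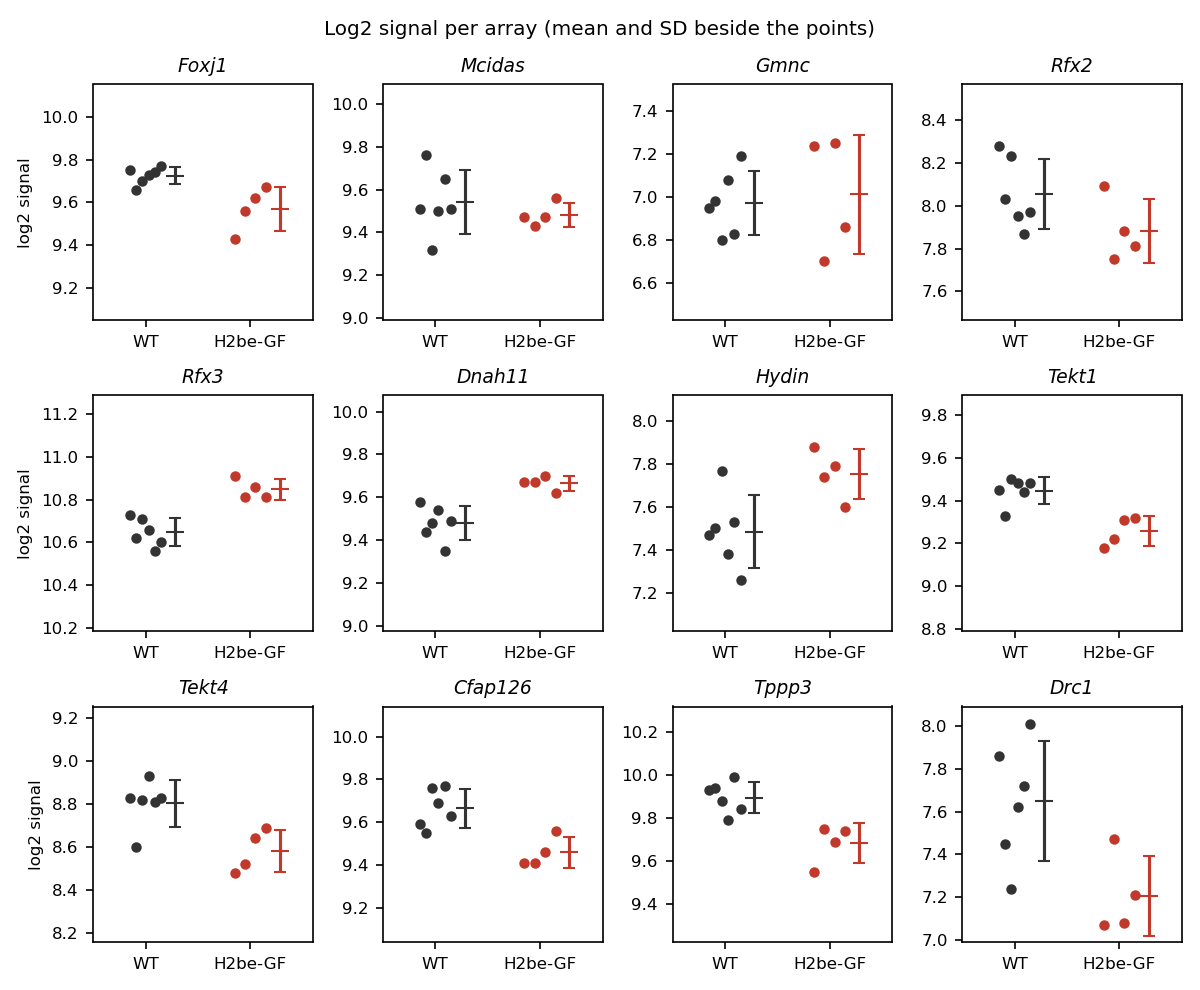
Log2 signal of 12 genes on the 6 WT arrays (grey) and the 4 H2be-GF arrays (red). Mean and SD stand beside the points, with an axis of the same span in every panel. The H2be-GF points lie apart from the WT points for Rfx3 and Dnah11 (above) and Tekt1 and Tppp3 (below).

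Of the 4 remaining genes, none passed at an unadjusted p of 0.05. Cfap70, an axonemal protein with a change of 0.09 ± 0.06, read 9.48, 9.40, 9.58 and 9.33 on the H2be-GF arrays, and 9.32, 9.34 and 9.44 at the lowest, median and highest WT array. Zbbx (0.11), Armc3 (-0.02) and Ak7 (-0.05), the last an adenylate kinase of motile cilia, overlapped between genotypes.

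Spef2, a protein of the central apparatus, was measured by 22 probe sets, which did not move alike. The gene mean exceeded the highest WT array on 3 of 4 H2be-GF arrays, at a change of 0.13 ± 0.06 with an adjusted p of 0.60 in limma. With only the probe set of the highest mean taken for each gene, the change of Spef2 was -0.11. In the order of their identifiers, the first 12 probe sets (10427640 to 10427673) all had higher values in H2be-GF mice, by 0.20 to 0.40, with a median of 0.31. All 12 had an unadjusted p under 0.05 in limma, against 4.55% of all 21587 probe sets in that direction, and 10 of the 12 did not overlap between genotypes, against 1.32% of all probe sets. None passed adjustment over all probe sets, where 0.0602% did (0.0278% higher), and their adjusted p-values were 0.165 to 0.475. A trended, robust variance in limma called 2 of them, 10427653 and 10427661. At the gene level that setting called 129 of 19765 genes, against 11 in the main fit. Its share over all probe sets was not read here. The other 10 (10427675 to 10427693) had changes of -0.17 to 0.01 with a median of -0.09. Among those, 1 was lower at an unadjusted p under 0.05 (4.17% of all probe sets were) and did not overlap (1.62%), namely 10427679, at -0.17 ± 0.06.

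Within the first set, 10427673 read 7.27, 7.42, 7.24 and 7.05 on the H2be-GF arrays, and 6.68, 6.84 and 6.96 at the lowest, median and highest WT array. All 4 H2be-GF arrays were above WT, with a change of 0.40 ± 0.08, an adjusted p of 0.165 in limma and an exact permutation p of 0.00476. The next probe set by identifier, 10427675, read 10.16, 10.39, 10.23 and 10.13 on the H2be-GF arrays, and 10.19, 10.32 and 10.47 at the lowest, median and highest WT array, a change of -0.10 ± 0.08. The sign of the change thus turned between neighbours in this order. The platform annotation sets the same groups apart, since it pairs each of the 12 with only 1 transcript record and each of the other 10 with that record and others. The groups also differ in signal, with mean levels up to 9.50 for the 12 and from 9.61 for the 10, and the part of either in the turn was not tested.

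Averaged per array, the 12 probe sets minus the 10 gave a log2 difference of -1.67, -1.75, -1.71 and -1.76 on the H2be-GF arrays, and -2.21, -2.09 and -2.03 at the lowest, median and highest WT array. The genotypes did not overlap, and the difference between them was 0.39 (log2), in which a scaling of whole arrays cancels. All 12 had changes above 0 without any one array in turn. They also did in the arrays with high and in those with low Xist, a noncoding RNA made from the inactive X of females. These 22 probe sets sample 1 gene and are not replicates, and the split was drawn after their values were seen, so that it is a description and has no test. The positions of the probes in the gene and the transcripts that the tissue uses were not read here.

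**Figure D4:**
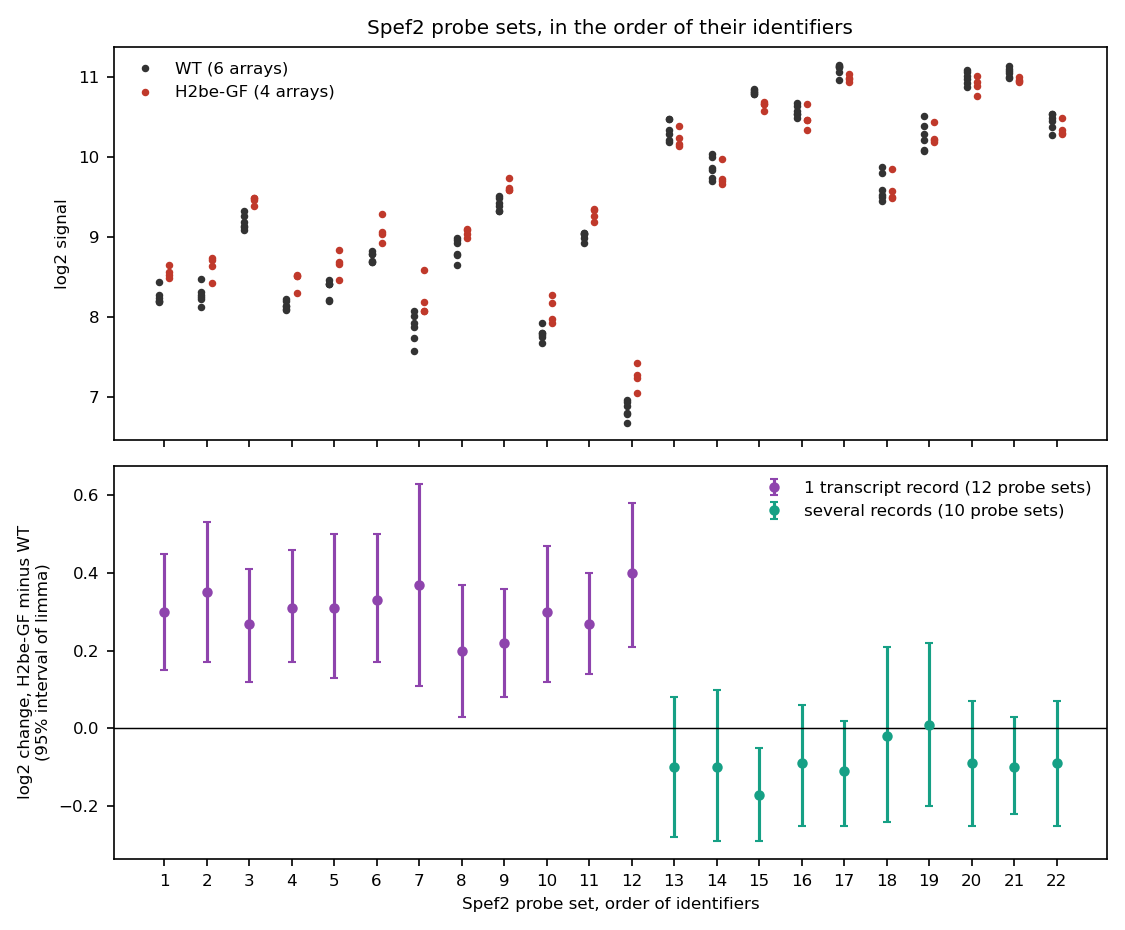
The 22 Spef2 probe sets in the order of their identifiers, with the log2 signal on each array above (6 WT in grey, 4 H2be-GF in red) and the log2 change with its 95% interval from limma below. The first 12, with 1 transcript record, lie at 0.20 to 0.40, and the other 10 at -0.17 to 0.01.

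The 39 genes together were lower on some H2be-GF arrays than on others. The mean over the genes of the log2 value minus its WT mean was -0.10, -0.07, -0.02 and -0.05 on the H2be-GF arrays and between -0.05 and 0.04 on the WT arrays. H2be-GF replicates 1 and 2 were thus below every WT array, and the other two were not. H2be-GF replicate 1 had the lowest value of all 10 arrays for 15 of the 39 genes. Xist was high on 2 H2be-GF and 3 WT arrays and low on the other 2 and 3, and the labels do not say what else sets these arrays apart. In the arrays high in Xist the median change of the 39 was -0.16, and in those low in Xist it was -0.04. A test of this difference in limma found 0 of the 39 at an adjusted p under 0.05 and 3 at an unadjusted p under 0.05, against 3.13% of all genes. In both sets alike, 17 of the 39 genes had changes below 0 and 7 above it.

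Genes of motile cilia beyond the 39 had changes of either sign, with more below 0 than above it among the axonemal genes (53 of 73, or 72.6%). Of 73 other axonemal genes measured, none passed the adjusted threshold, 11 were lower and 2 higher at an unadjusted p under 0.05, against 4.31% and 4.48% of all genes, and the median change was -0.06. Cfap100, which acts in regulating inner arms, had H2be-GF arrays at 8.78 to 8.86 and WT arrays at 9.04 to 9.25, a change of -0.34 ± 0.06 with an adjusted p of 0.114 in limma. Kif9, a kinesin of the central pair, had a change of -0.24 ± 0.06 with an adjusted p of 0.26 in limma, also without overlap. The 2 higher ones were Cfap300, at 0.26 ± 0.07, and Spata17, at 0.20 ± 0.07. Of 14 dynein arm assembly factors, 2 were lower at an unadjusted p under 0.05 (4.31% of all genes were), Dnaaf1 (-0.21) and Pih1d2 (-0.17), and 0 were higher (4.48% of all genes were), with a median of -0.08. Of 25 genes for the control of multiciliated cells and the making of their centrioles, 2 were higher and 1 lower at that level, against 4.48% and 4.31% of all genes, with a median of 0.02. The higher ones were Rfx4, a further RFX factor, at 0.54 ± 0.14, and Ccdc78, of centriole amplification, at 0.26 ± 0.10. The lower one was Dnajb13, at -0.22 ± 0.07, which is a radial spoke protein and not a gene of control or of centrioles.

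Intraflagellar transport and the Bardet-Biedl complex carry proteins along cilia of every kind, those of olfactory neurons included. Of the 41 genes of this list, 1 was lower (2.44%) and 0 higher at an unadjusted p under 0.05 in limma, against 4.31% and 4.48% of all genes. The lower one was Ift22, at -0.14 ± 0.06. Ift43 followed, at -0.12 ± 0.06. The median change was -0.01, and 26 of the 41 (63.4%) had changes below 0, against 47.7% of all genes. On every H2be-GF array 2 of the 41 were lower than on every WT array, against 1.68% of all genes. They were Ift22 and Ift81 (-0.13 ± 0.06), and Ift43 overlapped.

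**Figure D5:**
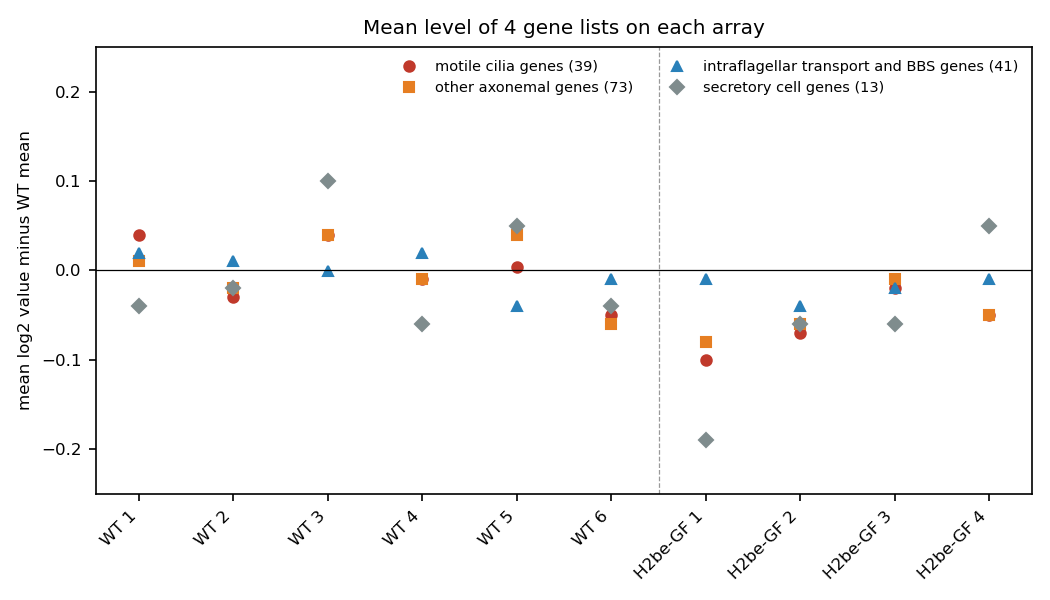
Mean over the genes of 4 lists of the log2 value minus its WT mean, on each of the 6 WT and 4 H2be-GF arrays (dashed line between the genotypes). The motile cilia genes lie between -0.10 and -0.02 on the H2be-GF arrays and between -0.05 and 0.04 on the WT arrays.

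Marker genes of other cells of the nose were read beside these values. The tissue held mature olfactory neurons, with Cnga2, a channel of odour transduction, at 12.33 to 12.41 on the H2be-GF and 12.44 to 12.54 on the WT arrays. Of the genes of ciliated cells, Foxj1, Tekt1, Rsph1 and Dnah5 all read 9.18 or above. Others of the 39 were dimmer, such as Gmnc, at 6.70 to 7.25 on the H2be-GF and 6.80 to 7.19 on the WT arrays. The levels were not set against a reference tissue. Of 13 markers of secretory cells of the respiratory epithelium and of glands, 0 passed in limma at an unadjusted p under 0.05, against 8.78% of all genes. Of these markers, 10 had changes below 0, against 47.7% of all genes, with a median of -0.06. Their mean level minus WT was -0.19 to 0.05 on the H2be-GF arrays, lowest on replicate 1, and -0.06 to 0.10 on the WT arrays. Muc5ac, a mucin, was at -0.35 ± 0.18 and Tff2, a trefoil peptide, at -0.16 ± 0.10. Of 11 markers of mature olfactory neurons, 9 had changes below 0, against 47.7% of all genes, with a median of -0.07. The mean level of the 11 was -0.06 to -0.03 on the H2be-GF arrays and -0.05 to 0.06 on the WT arrays. In limma 0 of the 11 passed at an unadjusted p under 0.05, against 8.78% of all genes. However, 3 of the 11 were lower on every H2be-GF array than on every WT array, against 1.68% of all genes. They were Omp (-0.10 ± 0.06), Cnga2 (-0.12 ± 0.06) and Rtp1 (-0.11 ± 0.06). Cnga4, the marker of smallest p, was at -0.13 ± 0.06. Median changes were -0.01 for immature neurons, 0.02 for sustentacular cells, -0.15 for basal cells, 0.01 for ensheathing glia, -0.08 for blood and -0.22 for bone and cartilage. All 5 basal cell markers had changes below 0, against 47.7% of all genes, and 1 passed at an unadjusted p under 0.05, against 8.78% of all genes. The one that passed was Krt15, a keratin, at -0.54 ± 0.14 with an adjusted p of 0.284 in limma and no overlap. Krt14 followed at -0.17 ± 0.11. Of 3 blood markers, 2 passed at an unadjusted p under 0.05 in opposite directions, against 8.78% of all genes in either direction. They were Alas2, of haem synthesis in red cells, at -0.32 ± 0.12, and Ptprc, of white cells, at 0.27 ± 0.11. Of the immature neuron, sustentacular, glial and bone markers, 0 passed at that level in limma, against 8.78% of all genes. Those of smallest p were Crmp1 (0.12) and Ncam1 (0.04), Muc2 (0.10) and Ermn (0.09), Fabp7 (0.03) and Frzb (0.03), and Col2a1 (-0.24) and Acan (-0.22). No marker of these lists passed the adjusted threshold, and the part of other cell types in the values of the 39 genes was not tested.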

How the data were processed

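RNA of whole MOE was hybridised to the Mouse Gene 1.0 ST array of Affymetrix. The authors checked for outlying scans with arrayQualityMetrics, summarised probe sets with IterPLIER and sketch-quantile normalization in Expression Console, and deposited log2 values, which run from 0 to 14.2. Quantile normalization hides changes shared by most genes. Tool versions: not given in the sources used here, nor was the build. The submitters' processing notes also name limma.

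Of 35556 probe sets, 21789 had 1 gene symbol in the platform annotation, 1621 several and 12146 none. Symbols were updated by Entrez ID through RefSeq (GRCm38.p6), which matched 21698. Probe sets were averaged per gene. Genes with a mean above 5 (19765) entered limma 3.58.1 (R 4.3.3), two-sided, without covariates, with Benjamini-Hochberg adjustment at a threshold of 0.05. The exact permutation test took the difference of means over the 210 splits of the arrays. The p-values measure the spread between pools, and the number of arrays limits precision.

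The 39 genes, the further lists and the rule for naming genes were chosen with earlier results of these data known. Named with values on every H2be-GF array were the 5 regulators, the up to 6 genes each way of smallest p, the 3 of highest mean, and Spef2, of whose probe sets only a pair at the turn was given in full, chosen after their values were seen. From each further list up to 2 genes of smallest p were named. Beyond the rule, Omp, Rtp1, Ccdc78, Cfap300, Spata17 and Ift81 were named after their values were seen. Lists were those of other axonemal, assembly, control and intraflagellar transport genes, and of cell type markers. The gene fit was tested on simulated data, with planted changes larger than those of the 39 genes. How well it recovers changes as small as theirs was not tested. Alternatives covered the probe set summary, filters, normalization, an added constant of 16, variance models, weights per array, a block for the replicate number, Xist sets (above or below 8) and each array left out.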

Additional observations from a re-analysis of the deposited data

Results flagged for a closer look

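In 9 of 122 groups of arrays (the 39 genes and the 22 Spef2 probe sets, in each genotype), 1 array stood apart from the others of its genotype by Dixon's criterion, which chance meets in about 1 of 20 groups. Tekt1 was lowest on WT replicate 2 at 9.33, with the other WT arrays at 9.44 to 9.50. Ccdc40 was lowest on H2be-GF replicate 2 at 8.89, with the other H2be-GF arrays at 9.18 to 9.23. Cfap43 was highest on WT replicate 5 at 8.91, with the others at 8.57 to 8.67. Cfap45, by contrast with its small mean change, was highest on H2be-GF replicate 2 at 8.43, with the others at 8.01 to 8.05. Cfap70 was highest on WT replicate 1 at 9.44, with the others at 9.32 to 9.36. Among the Spef2 probe sets, 10427640 was highest on WT replicate 3 at 8.44 (others 8.18 to 8.28) and 10427657 lowest on H2be-GF replicate 4 at 8.30 (others 8.51 to 8.53). Probe set 10427667 was highest on H2be-GF replicate 1 at 9.73 (others 9.59 to 9.61) and 10427687 on H2be-GF replicate 2 at 10.44 (others 10.19 to 10.22).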

How the results depend on the processing

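Under 22 alternatives (21 for probe sets), 817 of 835 values of the 39 single results, 17 genes and 22 Spef2 probe sets, kept their direction and their side of the adjusted threshold. A trended, robust variance called 1 of the motile cilia genes higher (Rfx3, adjusted p 0.044 in limma, change 0.20), 2 Spef2 probe sets higher (10427653 at 0.35 and 10427661 at 0.33) and put 2 Spef2 probe sets lower at an unadjusted p under 0.05. It called 129 genes in all against 11, and a filter at a mean above 7 called 34. Within the arrays high in Xist, 4 motile cilia genes were lower and 0 higher at that level, 0 Spef2 probe sets were lower and the median change was -0.16. Within those low in Xist, 1 motile cilia gene was lower and 4 were higher at that level, and the median change was -0.04. There, 4 Spef2 probe sets were higher and 0 lower. These fits hold fewer arrays, and called 0 and 3 genes in all. Leaving out each array in turn gave 2 to 4 higher and 6 to 10 lower genes, medians of -0.11 to -0.05, and 11 to 12 higher and 1 to 2 lower Spef2 probe sets (2 without H2be-GF replicate 2 or WT replicate 5), and called 5 genes in all without H2be-GF replicate 1 and 3 without replicate 3. The gene change of Gmnc turned to -0.04 without H2be-GF replicate 1 or 3 (range -0.04 to 0.14 over arrays left out), and that of Spef2 to -0.11 with the probe set of highest mean. Spef2 probe set 10427685 turned to 0.02 with the replicate block, 0.04 in the arrays high in Xist, and 0.02 to 0.03 without H2be-GF replicate 1 or 4 or WT replicate 2 or 5. Probe set 10427687 turned to -0.01 with centring on the array median, -0.08 in the arrays low in Xist, and -0.05 to -0.000 without H2be-GF replicate 2 or WT replicate 1, 3 or 4, in a range of -0.05 to 0.06 over arrays left out. The cause was not tested.

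The replicate numbers were not taken as pairs. Deviations of same-numbered H2be-GF and WT arrays correlated at 0.36, 0.04, -0.22 and 0.12 for replicates 1 to 4. The same-numbered WT array was the best match among WT arrays for replicate 1, and was not for replicates 2, 3 and 4. So few correlations cannot exclude a pairing. In a fit with a block for the replicate number, 0 of the 39 genes were called in limma, 3 lay above and 7 below WT at an unadjusted p under 0.05, the median change was -0.10, and 1 gene was called in all. Foxj1, Dnah11, Rsph1, Ccdc39 and Drc1 were then above an unadjusted p of 0.05 (0.111, 0.0689, 0.0931, 0.076 and 0.0518), and Rfx2, Tekt2 and Zbbx below it (0.0149, 0.0123 and 0.0324).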

Other observations

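The spread of motile cilia genes between arrays of a genotype had a median below that of all genes, in a comparison not matched by signal level. The SD within genotypes had a median of 0.12 (log2) over the 39 genes, against 0.15 over all genes tested, and ran from 0.06 for Rfx3, Tekt1 and Spef2 to 0.25 for Drc1. Across the 10 arrays, after removal of the genotype means, the 741 pairs of these genes had a median correlation of 0.09, with 58.3% above 0, against 0.000 for pairs of a motile cilia gene with another gene. All pairs share the same arrays and their normalization, so that this is a description.

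Forkhead motifs were also sought in the same promoter windows. TGTTTAC lay in 5.13% of the windows of the motile cilia genes and 3.65% of all windows, in Ak7 and Cfap43, and TGTTTGT in 2.56% against 6.61%, in Cfap126. Both strands were searched.

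Among 77 genes with 5 or more tested probe sets, the range of changes between probe sets of a gene had a median of 0.20 (log2), Spef2 had a range of 0.57 over its 22, and 4 of these genes had a larger one. A range grows with the number of probe sets, for which no allowance was made.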
